A study of Mus musculus with 16 samples.

Results

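Genes of the cell cycle were followed as a set of 41 named genes among the 24421 entries of a read count table from mouse ventricles. They were picked by name and not by their counts: 27 act in mitosis and 14 in DNA replication. All 41 passed the filter on low counts, as did 13522 entries in all. The samples were ventricles of C57BL/6N mice in 4 groups of 4 libraries: JP2CR TAC, JP2CR sham, WT TAC and WT sham. All mice were labelled male, which some libraries did not match, as given below. JP2CR mice were homozygous for a knock-in allele of Jph2, in which codons 563 to 568 are deleted. Junctophilin-2, which ties the transverse tubules of heart muscle cells to the sarcoplasmic reticulum, then resists cleavage by calpain. WT mice were wildtype littermates. TAC is transverse aortic constriction, a narrowing of the aorta that loads the left ventricle with pressure, and sham is the control operation. Surgery was at 9 to 10 weeks of age, and the ventricles were taken 5 weeks later. The design asks what protecting junctophilin-2 from calpain does to the ventricle under pressure, and here that question was put to cell cycle genes.

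A dividing cell first licenses its replication origins with the MCM helicase, makes deoxynucleotides and copies its DNA, and later builds a spindle, attaches its chromosomes and separates them. Replication genes are switched on before S phase through E2F binding sites. Most mitosis genes peak later, in G2 and M phase, and many carry CCAAT boxes, bound by NF-Y, and a cell cycle genes homology region (CHR), read here as TTTGAA, which is bound by the DREAM and MuvB complexes. Adult heart muscle cells seldom divide, whereas fibroblasts, endothelial cells and macrophages of the heart can divide under load. Ventricular RNA pools all of these cells, so a change in the number of dividing cells and a change in the RNA of each cell cannot be told apart.

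Promoters of 6 genes on which the results turn are shown, since the mitosis and replication genes differ in how often they hold certain promoter words. Each stretch is the 170 bases before the start of transcription in the RefSeq promoter table of GRCm38.p6, written 5′ to 3′ on the strand of the gene. The start in that table is not always the outermost start of the gene. In the first 4, all mitosis genes, capitals mark CCAAT and TTTGAA on either strand (ATTGG and TTCAAA are the other strand). In the last 2, both replication genes, capitals mark E2F core words, where matches on opposite strands overlap. Words marked in only 1 class also occur, in lower case, in the other. The Cdk1 stretch holds an E2F core word that begins 130 bases before the start. CCAAT words on either strand begin 77 and 22 bases before the start in Mcm5, and 57 and 14 bases before it in Mcm6.
Cdk1, chr10:69352913-69353082, minus strand: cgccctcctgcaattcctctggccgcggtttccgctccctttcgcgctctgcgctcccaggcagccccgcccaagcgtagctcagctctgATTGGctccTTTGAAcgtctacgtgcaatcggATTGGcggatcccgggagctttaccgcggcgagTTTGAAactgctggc
Cdc20, chr4:118437344-118437513, minus strand: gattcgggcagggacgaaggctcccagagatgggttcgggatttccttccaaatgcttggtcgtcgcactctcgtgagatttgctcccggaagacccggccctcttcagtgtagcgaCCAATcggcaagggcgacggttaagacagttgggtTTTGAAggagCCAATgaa
Top2a, chr11:99024190-99024359, minus strand: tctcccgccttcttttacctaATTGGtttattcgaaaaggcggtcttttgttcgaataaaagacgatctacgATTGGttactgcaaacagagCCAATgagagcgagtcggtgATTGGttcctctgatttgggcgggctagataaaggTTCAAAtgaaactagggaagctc
Cenpf, chr1:189688087-189688256, minus strand: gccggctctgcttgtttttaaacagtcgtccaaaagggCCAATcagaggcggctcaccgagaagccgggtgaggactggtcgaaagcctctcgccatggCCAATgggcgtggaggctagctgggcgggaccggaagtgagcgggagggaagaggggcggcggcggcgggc
Mcm5, chr8:75109339-75109508, plus strand: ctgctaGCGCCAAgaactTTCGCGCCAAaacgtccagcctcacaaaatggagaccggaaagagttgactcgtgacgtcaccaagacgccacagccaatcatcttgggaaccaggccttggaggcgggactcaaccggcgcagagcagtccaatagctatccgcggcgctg
Mcm6, chr1:128359706-128359875, minus strand: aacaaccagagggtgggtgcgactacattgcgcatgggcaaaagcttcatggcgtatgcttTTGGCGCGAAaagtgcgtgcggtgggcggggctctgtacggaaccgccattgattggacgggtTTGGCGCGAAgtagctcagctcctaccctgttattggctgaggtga

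Promoter windows from 250 bases before to 50 after the start were found for 34 of the 41 genes, 22 of them mitosis and 12 replication genes. Kif20a, Tpx2, Ccne2, Ccna2, Foxm1, Mcm4 and Aurkb had none in the table. CCAAT, on either strand, was in 19 of 22 windows of mitosis genes (86.4%), in 8 of 12 of replication genes (66.7%) and in 41.1% of the windows of all 27025 genes in the table. TTTGAA was in 16 of 22 (72.7%), in 1 of 12 (8.33%) and in 20.2% of all. Both words stood together in 16 mitosis windows, in 1 replication window, that of Mcm2, and in 7.97% of all. The E2F core was searched as TTGGCGC or as TTCCCGC, and further as TTCGCGC or as TTGCCGC, on either strand with overlaps allowed. It was in 4 of 22 windows of mitosis genes (18.2%), in 8 of 12 of replication genes (66.7%) and in 10.9% of all. With the 250 bases before the start alone, TTTGAA was in 8 of 22 windows of mitosis genes (36.4%) and in 18.3% of all windows. The E2F core was then in 6 of 12 windows of replication genes (50%) and in 9.01% of all. Cenpf has 2 CCAAT words in the stretch shown, and its TTTGAA starts at base 2 after the start, outside it. A word found here is a match of letters and was not tested for binding.

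Some libraries stood apart from their labels or from their groups. Total counts ran from 9966782 to 16609732 per library, and levels are given in CPM, counts per 1000000 of the library's total over the tested genes, scaled by its TMM factor. Xist, an RNA of female cells, stood at 189 CPM in JP2CR sham 3 and 196 CPM in JP2CR sham 4, where 4 Y-linked genes summed to 0. In JP2CR TAC 4, Xist reached 141 CPM while the Y-linked sum was 118 CPM. The other 13 libraries had at most 0.266 CPM of Xist and 179 to 237 CPM of the Y-linked genes. WT TAC 3 lay between WT TAC 1 and WT TAC 2 in 945 of the 952 genes that separated them (99.3%). JP2CR TAC 3 lay between JP2CR TAC 1 and JP2CR TAC 2 in 830 of 838 such genes (99.0%), whereas the other libraries had 16.3% to 89.0%. Results are therefore given also without the 3 libraries with Xist, without these 2 intermediate libraries and without all 5.

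Pressure overload raised nearly all mitosis genes in WT ventricles and, with all libraries in the fit, most of them in JP2CR ventricles. The replication genes moved less, mostly upward. In JP2CR, 20 of 27 mitosis genes were higher after TAC, 1 was lower and 6 were not called. In WT, 26 of 27 were higher and 1 was lower. A gene was called at an adjusted p under 0.05 in edgeR's quasi-likelihood test with Benjamini-Hochberg adjustment over all 13522 genes, which called 20.7% of genes higher and 20.7% lower in JP2CR, and 21.1% higher and 20.8% lower in WT. Of the 14 replication genes, 4 were higher and none was lower in JP2CR, against 6 higher and 1 lower in WT. Their estimates, called or not, were above 0 for 12 and below 0 for 2 in JP2CR, and for 11 and 3 in WT. The replication counts lie closer to the shares of all genes than the mitosis counts do. Without the 3 libraries that contain Xist, all of them JP2CR, the JP2CR count of mitosis genes was 5. That count lay near the share of all genes called higher in that fit, 18.5%. The median log2 fold change of TAC over sham was 1.11 for mitosis and 0.30 for replication genes in JP2CR, and 1.44 and 0.32 in WT, where the median of all genes was -0.00 in both genotypes. Without WT TAC 1 the WT medians were 1.13 and 0.14. No set test was made of these counts and medians.

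**Figure D1:**
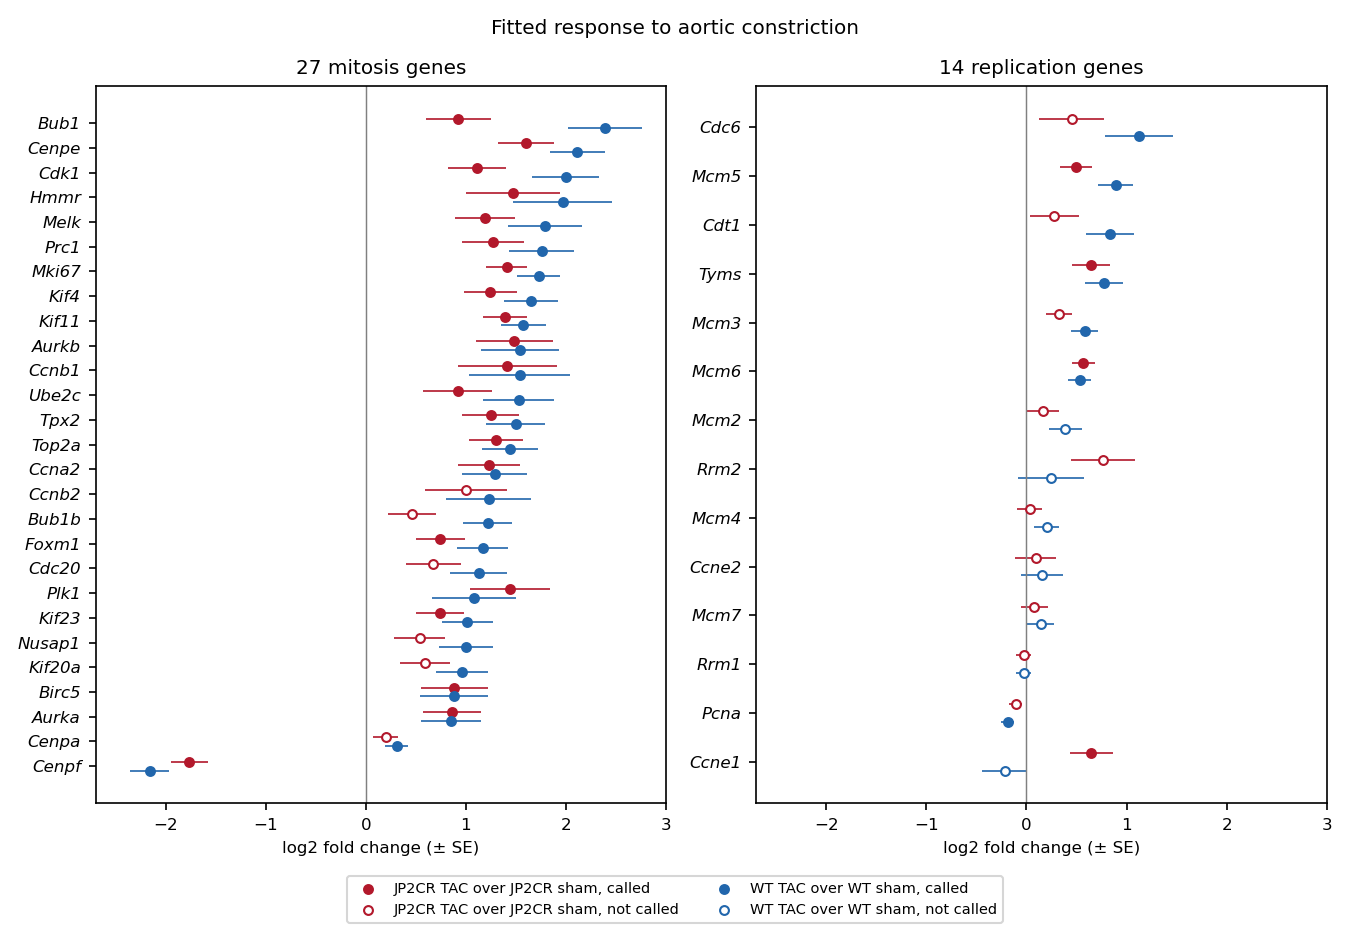
Fitted log2 fold change of TAC over sham (x axis, ± SE) for each of 27 mitosis genes (left) and 14 replication genes (right), in JP2CR (red) and WT (blue), with filled points for genes called by edgeR. Mitosis genes other than Cenpa and Cenpf lie between 0.46 and 2.39, Cenpf lies at -1.76 in JP2CR and -2.16 in WT, and replication genes lie between -0.22 and 1.13.

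Single libraries were then compared. With 4 libraries a group, the TAC libraries lay wholly above the sham libraries for 12 of 27 mitosis genes in JP2CR and for 22 of 27 in WT, against 16.8% and 21% of all genes. They lay wholly below for 1 mitosis gene, Cenpf, in each genotype (17.3% of all genes in JP2CR and 21% in WT). Among the 14 replication genes, 3 lay wholly above in JP2CR, and 5 wholly above and 2 wholly below in WT. The same 20 mitosis genes called higher in JP2CR were among those called higher in WT, where every mitosis gene but Cenpf was called higher. The 6 called only in WT were Ccnb2, Cdc20, Kif20a, Nusap1, Bub1b and Cenpa, and for none of them was the difference between the genotypes called (smallest adjusted p = 0.457, Bub1b, edgeR).

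Cyclins and kinases that drive entry into mitosis rose in 8 of 9 cases in JP2CR and in 9 of 9 in WT, with median log2 fold changes of 1.19 and 1.29. Beside this count and those of the gene groups below stand 20.7% of all genes called higher in JP2CR and 21.1% in WT. Cdk1, the kinase at the centre of mitotic entry, had 3.74, 4.60, 3.71 and 4.48 CPM in JP2CR TAC, against 2.50, 2.20, 0.987 and 2.09 CPM in JP2CR sham. It had 4.65, 3.12, 3.10 and 1.85 CPM in WT TAC, against 1.34, 0.621, 0.489 and 0.762 CPM in WT sham. The groups did not overlap in either genotype, and WT TAC 4 came nearest to the sham libraries. Cdk1 rose 2.16-fold in JP2CR (log2 1.11 ± 0.29 SE, edgeR adjusted p = 0.00522) and 3.99-fold in WT (2.0 ± 0.34, adjusted p = 0.000128).

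Ccnb1, the cyclin B1 partner of Cdk1, had 1.05, 2.58, 1.62 and 2.94 CPM in JP2CR TAC, against 0.856, 1.28, 0.247 and 0.837 CPM in JP2CR sham. In WT TAC it had 3.18, 1.33, 2.26 and 0.883 CPM, against 0.503, 0.931, 0.163 and 0.901 CPM in WT sham. The groups overlapped in both genotypes, because 1 TAC library in each lay among the sham libraries. Ccnb1 was called higher in both (log2 1.41 ± 0.49 SE and adjusted p = 0.029 in JP2CR, 1.54 ± 0.50 and 0.02 in WT, edgeR). Ccnb2, which encodes cyclin B2, had 1.2, 3.63, 3.01 and 2.74 CPM in JP2CR TAC, against 1.35, 1.92, 0.678 and 1.46 CPM in JP2CR sham. It had 3.49, 1.79, 3.27 and 0.883 CPM in WT TAC, against 1.09, 0.621, 1.22 and 1.11 CPM in WT sham. The lowest TAC library lay among the sham libraries in each genotype, and Ccnb2 was called only in WT (1.23 ± 0.42, adjusted p = 0.0269), with 1.0 ± 0.41 and adjusted p = 0.0571 in JP2CR (edgeR). The Ccnb1 call was lost without JP2CR sham 3, JP2CR TAC 2 or JP2CR TAC 4 in JP2CR, and without WT sham 3 or WT TAC 1 in WT. The Ccnb2 call in WT was lost without WT sham 2, WT TAC 1 or WT TAC 3, and a call in JP2CR was made without WT TAC 4, JP2CR sham 2 or JP2CR TAC 1. The other genes of this group rose in both genotypes: cyclin A2 (Ccna2), the mitotic kinases Plk1, Aurka, Aurkb and Melk, and Foxm1, a transcription factor of G2 and M phase genes. Their log2 fold changes were 0.74 (Foxm1) to 1.48 (Aurkb) in JP2CR and 0.85 (Aurka) to 1.79 (Melk) in WT. The JP2CR calls of Aurka and Foxm1 were lost without JP2CR sham 3, JP2CR TAC 2 or JP2CR TAC 3. Of the 16 fits that left out 1 library, Aurka was called in WT in 10 and Plk1 in 7.

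Spindle checkpoint and mitotic exit genes were higher in 3 of 5 cases in JP2CR and in 5 of 5 in WT, with medians of 0.89 and 1.22. Bub1, a checkpoint kinase at kinetochores, had 1.27, 1.69, 1.47 and 1.34 CPM in JP2CR TAC, against 0.713, 0.915, 0.678 and 0.732 CPM in JP2CR sham. It had 2.63, 0.863, 1.34 and 1.53 CPM in WT TAC, against 0.252, 0.248, 0.489 and 0.208 CPM in WT sham. TAC lay above sham in all libraries of both genotypes, and the WT sham values rest on only 3 to 6 counts per library. Bub1 had the highest log2 fold change of all 41 genes in WT (2.39 ± 0.37 SE, adjusted p = 5.59e-05), and 0.93 ± 0.32 in JP2CR (adjusted p = 0.0278, edgeR). The JP2CR call was lost, with adjusted p-values up to 0.0709, without JP2CR sham 1, JP2CR sham 3, JP2CR TAC 2 or JP2CR TAC 3.

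Cdc20, which activates the anaphase promoting complex, had 1.95, 3.55, 3.09 and 3.48 CPM in JP2CR TAC, against 2.64, 2.10, 1.17 and 1.67 CPM in JP2CR sham. It had 4.42, 3.45, 2.76 and 1.93 CPM in WT TAC, against 1.34, 1.55, 1.22 and 1.59 CPM in WT sham. The groups overlapped in JP2CR and not in WT. Cdc20 was called in WT (1.13 ± 0.28, adjusted p = 0.00366) and not in JP2CR (0.67 ± 0.28, adjusted p = 0.059, edgeR). It was called in JP2CR when WT TAC 1, WT TAC 4, JP2CR sham 1 or JP2CR TAC 1 was left out. Ube2c, the ubiquitin-conjugating enzyme of that complex, and Birc5, or survivin, of the chromosomal passenger complex, were called in both, at 0.92 and 0.89 in JP2CR and 1.53 and 0.88 in WT. With 1 library left out, Ube2c was called in 9 of 16 fits in JP2CR and 16 of 16 in WT, and Birc5 in 5 and 3 of 16. Bub1b, which encodes the checkpoint protein BubR1, had 0.46 ± 0.24 in JP2CR (adjusted p = 0.134) and 1.22 ± 0.25 in WT (adjusted p = 0.000708, edgeR).

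Of 5 genes of chromosomes and centromeres, 3 were higher and 1 was lower in JP2CR, and 4 were higher and 1 was lower in WT. Mki67, the widely used marker of proliferating cells, which coats mitotic chromosomes, had 16.8, 19.6, 15.8 and 17.8 CPM in JP2CR TAC, against 8.20, 8.60, 3.33 and 6.69 CPM in JP2CR sham. It had 19.2, 14.6, 18.5 and 12.4 CPM in WT TAC, against 4.28, 4.84, 4.48 and 5.82 CPM in WT sham. All TAC libraries were above all sham libraries, and Mki67 rose 2.65-fold in JP2CR (log2 1.41 ± 0.21 SE, adjusted p = 4.42e-05) and 3.31-fold in WT (1.73 ± 0.21, adjusted p = 5.45e-06, edgeR).

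Top2a, the topoisomerase that untangles chromosomes, had 8.16, 14.4, 10.9 and 11.7 CPM in JP2CR TAC, against 5.99, 6.95, 2.41 and 3.14 CPM in JP2CR sham. It had 12.4, 8.57, 9.97 and 7.47 CPM in WT TAC, against 3.69, 4.72, 2.85 and 2.77 CPM in WT sham. Its groups did not overlap (log2 1.30 ± 0.27 SE and adjusted p = 0.00101 in JP2CR, 1.44 ± 0.28 and 0.000502 in WT, edgeR). Cenpe, a kinetochore motor, had 1.72, 2.34, 2.55 and 2.34 CPM in JP2CR TAC, against 0.927, 0.641, 0.617 and 0.732 CPM in JP2CR sham. It had 3.72, 2.52, 2.26 and 2.41 CPM in WT TAC, against 1.01, 0.497, 0.326 and 0.693 CPM in WT sham. Cenpe rose 3.04-fold in JP2CR (1.60 ± 0.28, adjusted p = 0.000209) and 4.33-fold in WT (2.11 ± 0.28, adjusted p = 9.84e-06, edgeR), with no overlap in either genotype.

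Cenpf went the other way from every other mitosis gene. It encodes a large protein of the kinetochore that also binds microtubules, and lies on chromosome 1 (GRCm38, 189640606 to 189688107). It had 14.1, 7.82, 10.6 and 15.8 CPM in JP2CR TAC, against 35.3, 50.1, 33.3 and 47.5 CPM in JP2CR sham. It had 7.67, 6.04, 9.05 and 8.59 CPM in WT TAC, against 41.9, 30.7, 33.9 and 33.1 CPM in WT sham. Every TAC library was below every sham library in both genotypes. Cenpf fell by 1.76 ± 0.18 on the log2 scale in JP2CR (SE, adjusted p = 1.16e-06) and by 2.16 ± 0.19 in WT (adjusted p = 1.55e-07, edgeR), so that sham was 3.39-fold and 4.47-fold above TAC. These were the smallest adjusted p-values among the 41 genes in both genotypes. The fall was called in each fit that left out 1 library, at -1.92 to -1.61 in JP2CR and -2.23 to -2.04 in WT.

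The level of Cenpf in sham hearts also set it apart from the mitosis genes. Per kilobase of exon, Cenpf averaged 2.69 CPM in JP2CR sham and 2.26 CPM in WT sham, while Mki67 averaged 0.667 and 0.483 and Bub1 0.174 and 0.069. Of the mitosis genes, Cenpa, the histone H3 variant of centromeres, was the only other one above 2 CPM per kilobase in these groups, at 5.79 in JP2CR sham and 6.56 in WT sham. After TAC, Cenpf averaged 0.783 CPM per kilobase in JP2CR and 0.508 in WT, below Mki67 at 1.74 and 1.61. Cenpa changed little, with 0.20 ± 0.12 (log2 ± SE, adjusted p = 0.204) in JP2CR and 0.31 ± 0.12 (adjusted p = 0.0434, edgeR) in WT. The Cenpa call held in 6 of the 16 fits that left out 1 library. WT TAC 1, at 60.4 CPM, was the library highest in Cenpa.

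**Figure D2:**
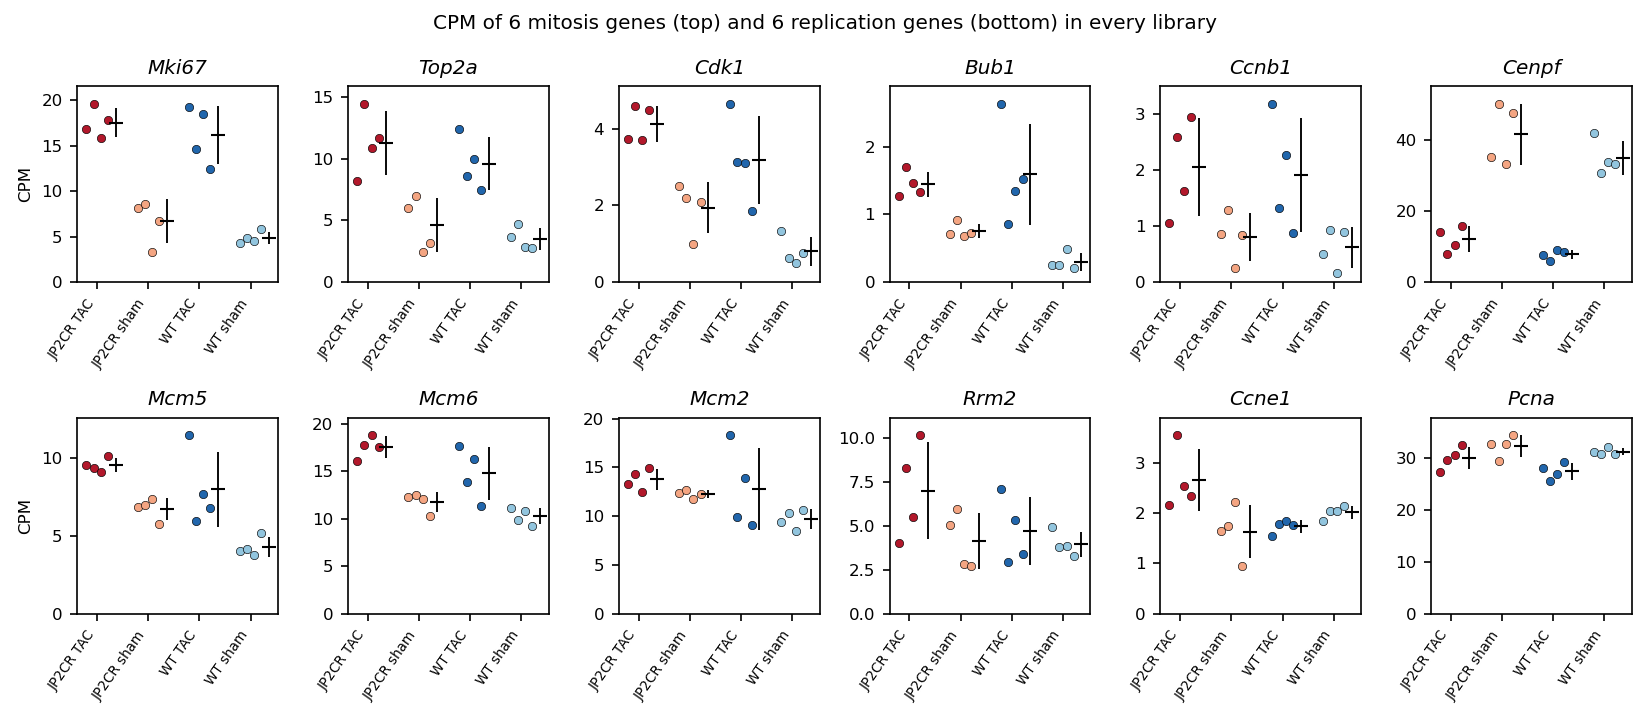
CPM (y axis, from 0) of 6 mitosis genes (top) and 6 replication genes (bottom) in each library of the 4 groups, with the group mean ± SD beside the points (n = 4). Mki67, Top2a, Cdk1 and Bub1 separate TAC from sham upwards, Cenpf separates them downwards, Mcm2 and Rrm2 overlap between TAC and sham in both genotypes, and Pcna lies lower after TAC in WT.

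Spindle and cytokinesis genes rose in 6 of 8 cases in JP2CR and in 8 of 8 in WT, with medians of 1.25 and 1.53. Kif11, the kinesin that pushes spindle poles apart, had 5.01, 6.21, 5.64 and 4.95 CPM in JP2CR TAC, against 2.42, 3.02, 1.11 and 1.88 CPM in JP2CR sham. It had 5.66, 5.64, 5.19 and 3.69 CPM in WT TAC, against 1.68, 1.86, 1.63 and 1.59 CPM in WT sham. The groups did not overlap, and Kif11 rose 2.63-fold in JP2CR (log2 1.39 ± 0.22 SE, adjusted p = 8.16e-05) and 2.97-fold in WT (1.57 ± 0.22, adjusted p = 2.5e-05, edgeR). Kif4, a chromosome kinesin, Prc1, which bundles the central spindle, Tpx2, a spindle assembly factor, Hmmr, a spindle pole protein, and Kif23, a kinesin of cytokinesis, rose in both genotypes by 0.74 to 1.47 in JP2CR and by 1.01 to 1.97 in WT. Kif20a, another kinesin of cytokinesis, and Nusap1, a microtubule-binding spindle protein, were called in WT alone, at 0.96 and 1.0, with 0.60 and 0.54 in JP2CR (adjusted p = 0.0646 and 0.103, edgeR). Kif20a was called in JP2CR without JP2CR sham 4 or JP2CR TAC 1, and the JP2CR call of Kif23 was lost without JP2CR sham 2 or JP2CR TAC 2. Kif20a shares 29.3% of its exonic bases with Cdc23 on the opposite strand and Ube2c shares 22.8% with Tnnc2. The strand setting of the counting is not given in the sources used here, so the counts of such genes are less certain. Kif4, Ccnb1, Ccnb2, Tyms and Pcna have annotated pseudogenes with which reads could be shared.

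Genes that load the replicative helicase were higher in 2 of 8 cases in JP2CR, Mcm5 and Mcm6, and in 5 of 8 in WT, where Mcm3, Cdt1 and Cdc6 were called too. The JP2CR count lay near the share of all genes called higher there, 20.7%, and that share was 21.1% in WT. Their median was 0.30 in JP2CR and 0.56 in WT. Mcm5, a helicase subunit, had 9.58, 9.36, 9.11 and 10.2 CPM in JP2CR TAC, against 6.85, 6.95, 7.40 and 5.75 CPM in JP2CR sham. It had 11.5, 5.98, 7.71 and 6.82 CPM in WT TAC, against 4.03, 4.16, 3.75 and 5.20 CPM in WT sham. The groups did not overlap, and WT TAC 1 stood above the other WT TAC libraries. Mcm5 rose 1.41-fold in JP2CR (log2 0.50 ± 0.16 SE, adjusted p = 0.0214) and 1.85-fold in WT (0.89 ± 0.17, adjusted p = 0.00047, edgeR). Its JP2CR call was lost without JP2CR sham 4 or JP2CR TAC 4.

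Mcm6, of the same ring, had 16, 17.7, 18.8 and 17.5 CPM in JP2CR TAC, against 12.3, 12.4, 12.1 and 10.2 CPM in JP2CR sham. It had 17.7, 13.9, 16.3 and 11.3 CPM in WT TAC, against 11.1, 9.87, 10.8 and 9.22 CPM in WT sham. There was again no overlap, with WT TAC 4 close to the sham libraries. Mcm6 rose 1.48-fold in JP2CR (0.57 ± 0.12, adjusted p = 0.000802) and 1.44-fold in WT (0.53 ± 0.12, adjusted p = 0.00149, edgeR). Mcm3 had 8.61, 11.7, 9.81 and 10.7 CPM in JP2CR TAC, against 8.70, 7.59, 7.77 and 8.47 CPM in JP2CR sham. It had 12.6, 9.56, 11.6 and 9.71 CPM in WT TAC, against 7.72, 7.02, 5.62 and 8.59 CPM in WT sham. Its groups overlapped in JP2CR (0.33 ± 0.13, adjusted p = 0.0581) and not in WT (0.58 ± 0.13, adjusted p = 0.0019, edgeR). Mcm3 was called in JP2CR without WT sham 3, WT sham 4 or JP2CR TAC 1.

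The other subunits of the ring were not called. Mcm2 had 13.3, 14.4, 12.5 and 14.9 CPM in JP2CR TAC, against 12.3, 12.7, 11.8 and 12.2 CPM in JP2CR sham. It had 18.3, 9.96, 13.9 and 9.07 CPM in WT TAC, against 9.40, 10.4, 8.47 and 10.7 CPM in WT sham. WT TAC 2 and WT TAC 4 lay among the sham libraries, and Mcm2 was called in neither genotype (0.17 ± 0.16 and adjusted p = 0.425 in JP2CR, 0.39 ± 0.16 and 0.0654 in WT, edgeR). It was called in WT without WT TAC 2 or WT TAC 4, with an adjusted p as low as 0.0122. Mcm4 and Mcm7 had log2 fold changes of 0.03 and 0.08 in JP2CR and of 0.20 and 0.14 in WT, none called. The loading factors Cdt1 and Cdc6 had 0.28 and 0.45 in JP2CR, not called, against 0.84 and 1.13 in WT (adjusted p = 0.0097 and 0.0127, edgeR). The Cdc6 call was lost without WT TAC 1 (adjusted p = 0.0612).

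Genes of nucleotide supply and the sliding clamp did not move as a group. Tyms, thymidylate synthase, had 2.84, 4.68, 4.09 and 3.41 CPM in JP2CR TAC, against 2.64, 1.83, 2.84 and 2.09 CPM in JP2CR sham. It had 4.11, 2.99, 3.69 and 3.69 CPM in WT TAC, against 1.85, 2.48, 1.95 and 2.08 CPM in WT sham. JP2CR TAC 1 was level with the highest JP2CR sham library, and Tyms was called higher in both (log2 0.65 ± 0.19 SE and adjusted p = 0.0105 in JP2CR, 0.77 ± 0.19 and 0.00321 in WT, edgeR). Rrm2, the small subunit of ribonucleotide reductase, had 4.04, 8.31, 5.48 and 10.2 CPM in JP2CR TAC, against 5.06, 5.95, 2.84 and 2.72 CPM in JP2CR sham. It had 7.13, 2.92, 5.36 and 3.37 CPM in WT TAC, against 4.95, 3.79, 3.83 and 3.26 CPM in WT sham. The groups overlapped in both genotypes, and Rrm2 was not called (0.76 ± 0.32 and adjusted p = 0.0615 in JP2CR, 0.25 ± 0.33 and 0.582 in WT, edgeR). It was called in JP2CR without WT TAC 1, JP2CR sham 2 or JP2CR TAC 1, and by DESeq2. Rrm1, the large subunit of the same enzyme, had -0.03 in both genotypes.

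Pcna, the sliding clamp of DNA polymerase, had 27.2, 29.6, 30.6 and 32.4 CPM in JP2CR TAC, against 32.7, 29.4, 32.7 and 34.3 CPM in JP2CR sham. It had 28.0, 25.5, 26.8 and 29.1 CPM in WT TAC, against 31.1, 30.7, 32.1 and 30.6 CPM in WT sham. The WT groups did not overlap, and Pcna fell by 0.19 ± 0.06 on the log2 scale in WT (SE, adjusted p = 0.0263). In JP2CR the groups overlapped (-0.11 ± 0.06, adjusted p = 0.196, edgeR). The WT call was lost without WT sham 3, without WT TAC 2 or without WT TAC 3, with adjusted p-values of up to 0.092. Per kilobase of exon, Pcna had the highest level of the 41 genes in all 4 groups, at 12.5 CPM in JP2CR TAC, 13.4 in JP2CR sham, 11.4 in WT TAC and 13.0 in WT sham.

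The E cyclins, which drive entry into S phase, were called once. Ccne1, which encodes cyclin E1, had 2.17, 3.55, 2.55 and 2.34 CPM in JP2CR TAC, against 1.64, 1.74, 2.22 and 0.941 CPM in JP2CR sham. It had 1.55, 1.79, 1.84 and 1.77 CPM in WT TAC, against 1.85, 2.05, 2.04 and 2.15 CPM in WT sham. The JP2CR groups overlapped by 1 library, and the WT TAC libraries lay just below the WT sham libraries. Ccne1 was higher in JP2CR (log2 0.65 ± 0.22 SE, adjusted p = 0.0233) and not called in WT (-0.22 ± 0.22, adjusted p = 0.46). The JP2CR call was lost without JP2CR sham 4 or JP2CR TAC 2 and in a fit of the JP2CR libraries alone. The difference between these effects was 0.87 ± 0.31 and was not called (adjusted p = 0.301, edgeR). Ccne2, for cyclin E2, had 0.09 in JP2CR and 0.15 in WT, neither called.

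**Figure D3:**
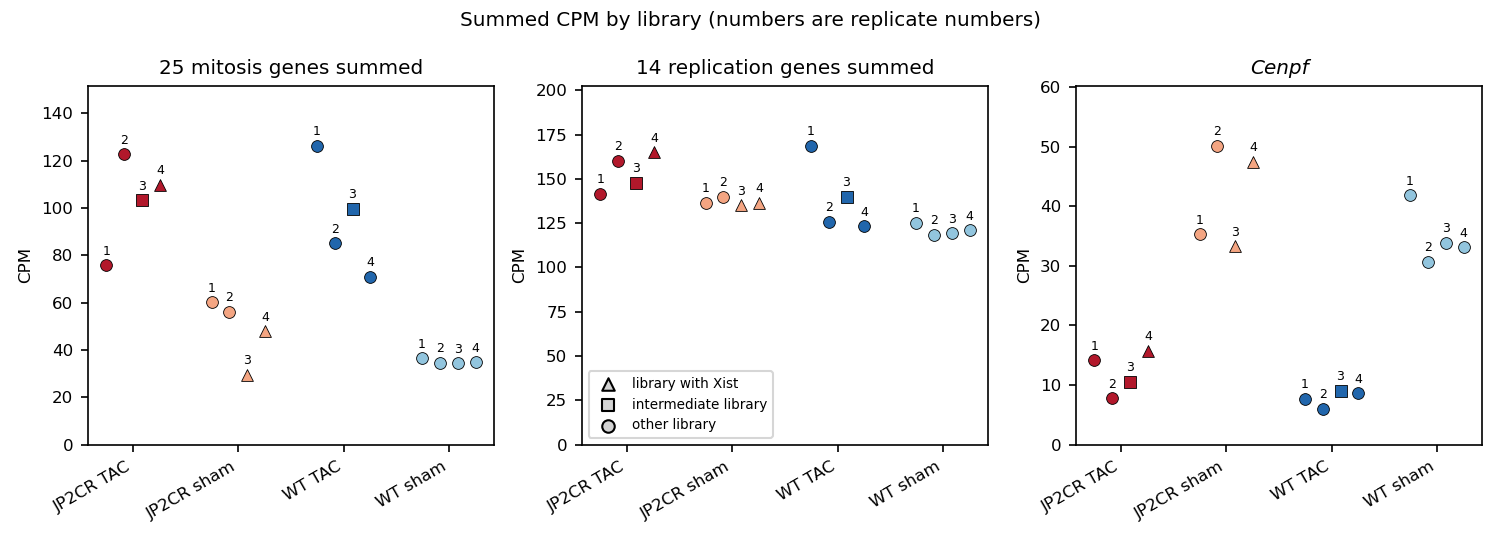
Summed CPM (y axis, from 0) of 25 mitosis genes without Cenpf and Cenpa (left), of 14 replication genes (middle), and CPM of Cenpf alone (right) in each library, with libraries that contain Xist as triangles and intermediate libraries as squares. Mitosis sums are 75.7 to 123 in JP2CR TAC and 29.5 to 60.2 in JP2CR sham, and the lowest sham library is JP2CR sham 3.

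Summed over the 25 mitosis genes other than Cenpf and Cenpa, the libraries had 75.7, 123, 103 and 110 CPM in JP2CR TAC, against 60.2, 56.2, 29.5 and 47.8 CPM in JP2CR sham. The sums were 126, 85.1, 99.7 and 71.0 CPM in WT TAC, against 36.6, 34.6, 34.4 and 34.9 CPM in WT sham. The TAC libraries were above the sham libraries throughout, the WT sham libraries lay close together, and the JP2CR sham libraries were spread over a range that enclosed them. The replication sums were 142, 160, 148 and 165 CPM in JP2CR TAC, against 137, 140, 135 and 137 CPM in JP2CR sham. They were 169, 126, 140 and 123 CPM in WT TAC, against 125, 118, 119 and 121 CPM in WT sham. Here the lowest WT TAC library lay among the WT sham libraries. Within 3 of the groups 1 library was lowest for most of the 27 mitosis genes: JP2CR TAC 1 for 23, JP2CR sham 3 for 25 and WT TAC 4 for 18. WT TAC 1 was highest for 24 of them and for 12 of 14 replication genes. In WT sham no library stood out in this way, since the 4 libraries were highest for 9, 5, 9 and 4 mitosis genes and lowest for 4, 6, 11 and 6.

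The count of mitosis genes called in JP2CR fell when the 3 libraries with Xist were left out. Without them, 5 mitosis genes were called higher in JP2CR, against 26 in WT, where 18.5% and 22.8% of all genes were called higher. The JP2CR count of 5 of 27 lay near that share of all genes. The 5 were Mki67 (1.06), Top2a (0.79), Kif11 (1.06), Kif4 (1.36) and Cenpe (1.46), and 3 replication genes, Mcm6, Tyms and Ccne1, were also called higher. Only JP2CR sham 1 and JP2CR sham 2 then stood for JP2CR sham, with mitosis sums of 60.2 and 56.2 CPM. This fit drops 3 JP2CR libraries and no WT library, so the loss of libraries cannot be told apart from the presence of Xist. Of the 27 mitosis genes, 26 still had estimates above 0, with a median of 0.74. Cenpf was called lower with -1.96 ± 0.20 (log2 ± SE).

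Without the 2 intermediate libraries, 14 mitosis and 4 replication genes were called higher in JP2CR, and 20 and 6 in WT, against 17.1% and 18.1% of all genes. Without all 5, 4 mitosis genes and no replication gene were called higher in JP2CR, and 23 and 6 in WT, against 14.8% and 20.2% of all genes. The JP2CR mitosis count again lay near the share of all genes. The median of the mitosis genes was then 0.73 in JP2CR and 1.42 in WT. Leaving out 1 library at a time gave 13 to 23 mitosis genes called higher in JP2CR, the lowest without JP2CR TAC 2, and 20 to 26 in WT. For replication genes it gave 2 to 6 in JP2CR, the lowest without JP2CR sham 4, and 5 to 7 in WT.

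**Figure D4:**
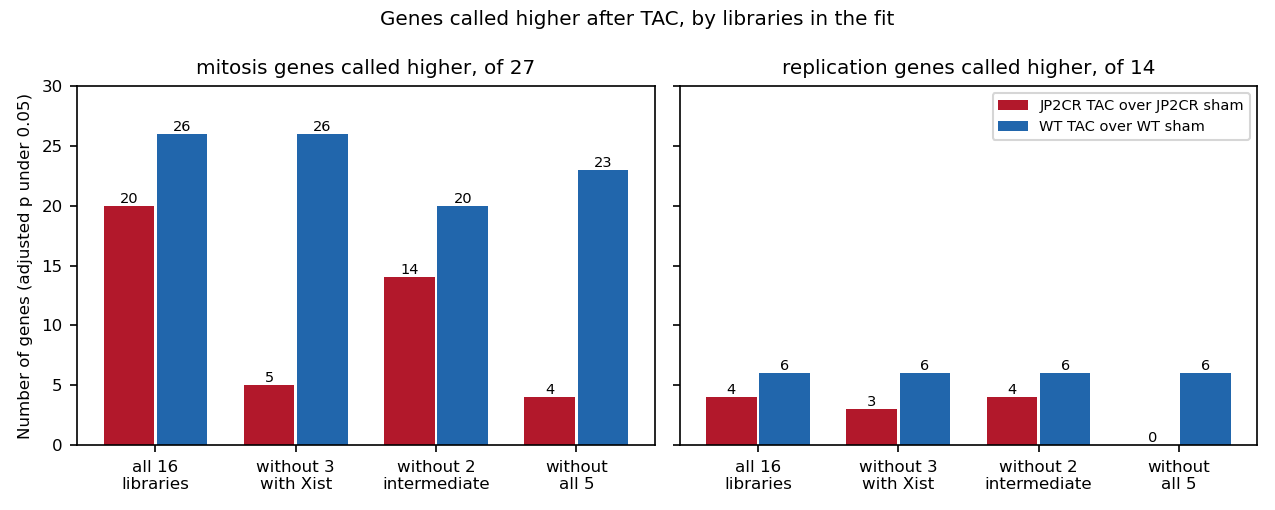
Number of mitosis genes (left, of 27) and replication genes (right, of 14) called higher after TAC by edgeR (y axis, from 0) in JP2CR (red) and WT (blue), by which libraries were in the fit (x axis). In JP2CR the mitosis count is 20 with all libraries and 5 without the 3 libraries with Xist, while in WT it is 26 in both. These 3 libraries are all JP2CR, and without them 18.5% of all genes were called higher in JP2CR.

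Between the genotypes themselves, none of the 41 genes was called by edgeR. In sham hearts, JP2CR against WT gave 0 calls, with 6 genes at an unadjusted p under 0.05 and a smallest adjusted p of 0.261 (Mcm5, log2 0.66 ± 0.18 SE), where edgeR called 0% of all genes higher and 0.0961% lower. Of the 41 estimates, 39 were above 0, among them Bub1 at 1.33 ± 0.42, Cdk1 at 1.26 ± 0.36 and Melk at 1.19 ± 0.40. Their median was 0.30, where the median of all genes was 0.005. The 41 estimates rest on the same libraries, so they are not separate observations. After TAC there were again 0 calls, 5 genes at an unadjusted p under 0.05 and a smallest adjusted p of 0.174 (Cenpf, 0.64 ± 0.21), against 0.362% of all genes called higher and 0.288% lower. The difference of the TAC effects between JP2CR and WT was called for 0 genes, with 3 at an unadjusted p under 0.05, against 0.0887% and 0.0296% of all genes. The lowest estimate was -1.46 ± 0.51 for Bub1 (adjusted p = 0.283) and the highest was 0.87 ± 0.31 for Ccne1. DESeq2 called 0 of the 41 genes in each of these 3 comparisons. Without the 3 libraries with Xist, edgeR called more of the 13740 genes tested. It called 20 higher and 44 lower after sham, 228 and 150 after TAC, and 213 and 159 for the difference. None of the 41 genes gained a call there. Because the libraries with Xist are all JP2CR, their part in these comparisons cannot be fully told apart from genotype. A larger TAC effect in WT than in JP2CR, which most mitosis genes show in their estimates (23 of 27 below 0, median -0.32), was therefore not shown for any one gene.

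Other genes of the same pathways are read against the shares of all genes given above, 20.7% called higher and 20.7% lower in JP2CR, and 21.1% higher and 20.8% lower in WT. Of 34 tested mitotic genes outside the set, 20 were higher and 1 lower in JP2CR (median 0.85) and 19 higher and 1 lower in WT (median 0.97). Ckap2l, a spindle protein, rose by 1.62 ± 0.34 in JP2CR and 2.02 ± 0.36 in WT (log2 ± SE, adjusted p = 0.00102 and 0.00021). The condensin subunit Smc4 rose by 0.64 and 0.55, and the spindle protein Tacc3 by 0.89 and 0.74. Pttg1, securin, which holds back the separation of sister chromatids, fell by 0.49 ± 0.06 in JP2CR and by 0.42 ± 0.06 in WT (adjusted p = 9.49e-06 and 4.34e-05, edgeR). Of 25 tested replication factors outside the set, 6 were higher and 1 lower in JP2CR (median 0.08), and 4 higher and 3 lower in WT (median 0.20), so the counts of higher replication factors lay near the share of all genes. Chaf1a, of the chromatin assembly factor behind the fork, rose by 0.80 and 0.74, and Uhrf1, which helps copy DNA methylation, by 0.71 and 1.30. Dut, which clears dUTP, fell by 0.66 in JP2CR and by 0.92 in WT, and Rpa2, which binds single-stranded DNA, had -0.21 in JP2CR, not called, and fell by 0.48 in WT.

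Regulators of the cell cycle went both ways, as did all genes tested. Of all genes, 20.7% were called higher and 20.7% lower in JP2CR, and 21.1% higher and 20.8% lower in WT. A first list held the D cyclins, Cdk2, Cdk4, Cdk6, the Cdc25 phosphatases and Wee1. Of its 9 tested genes, 3 were higher and 1 lower in JP2CR, and 2 higher and 1 lower in WT. The D cyclins Ccnd2 and Ccnd1 rose by 0.89 and 0.56 in JP2CR and by 1.04 and 0.60 in WT, while Cdk2, the partner of cyclin E, fell by 0.28 and 0.27. Cdc25b, a phosphatase that activates Cdk1, rose by 0.49 in JP2CR (adjusted p = 0.00993) and had 0.10 in WT (adjusted p = 0.629, edgeR). Among 6 tested CDK inhibitors, 3 were higher and 3 lower in JP2CR, and 1 higher and 3 lower in WT. Cdkn1a, which encodes p21, rose by 1.15 ± 0.16 in JP2CR and 1.06 ± 0.16 in WT (log2 ± SE, adjusted p = 2.57e-05 and 4.88e-05, edgeR). Cdkn1b (p27), Cdkn1c (p57) and Cdkn2c (p18) fell by 0.33, 0.58 and 0.30 in JP2CR and by 0.38, 0.97 and 0.42 in WT. Among 16 genes of the pocket proteins, E2F factors and MuvB complex, 6 were higher and 1 lower, E2f4, in JP2CR, and 7 higher and none lower in WT. E2f1 rose by 0.94 and 1.19, E2f3 by 0.35 and 0.38, and the pocket proteins Rbl1 (p107) and Rb1 by 0.67 and 0.28 in JP2CR and by 0.64 and 0.20 in WT.

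Several cell type marker lists also differed between TAC and sham, in both directions. Sums over 9 macrophage markers were 340 to 395 CPM in JP2CR TAC and 243 to 292 in JP2CR sham, and 312 to 331 in WT TAC and 236 to 262 in WT sham, with 7 markers called higher in each genotype, and 1 lower in WT. Sums over 8 fibroblast markers were 2601 to 3284 CPM in JP2CR TAC and 1412 to 1878 in JP2CR sham, and 2552 to 3765 in WT TAC and 1722 to 1757 in WT sham, with 4 called higher in each, and 1 lower in JP2CR. Sums over 8 cardiomyocyte markers were 60861 to 66199 CPM in JP2CR TAC and 77244 to 99880 in JP2CR sham, and 59831 to 63979 in WT TAC and 81822 to 85976 in WT sham, with 1 called higher and 5 lower in each. Sums over 7 endothelial markers overlapped between TAC and sham, with none called higher and 2 lower in JP2CR and none called in WT. B and plasma cell markers summed to 82.0, 9.44, 40.2 and 8.29 CPM in JP2CR TAC against 4.69 to 7.11 in JP2CR sham. The high sums were those of JP2CR TAC 1 and of the intermediate library, JP2CR TAC 3. In WT TAC they were 5.31 to 12.5 against 7.89 to 9.04 in WT sham. Of 5 tested markers, 4 were called higher in JP2CR and 1 lower in WT. T and NK cell markers summed to at most 4.19 CPM in any library. Of 6 atrial myocyte markers, none was higher and 2 were lower in JP2CR, and 1 was higher and 5 were lower in WT. Their median log2 fold change was -1.27 in JP2CR and -4.04 in WT. Their sums were 4115 to 5201 CPM in JP2CR TAC and 275 to 5939 in JP2CR sham, and 3915 to 7522 in WT TAC and 3073 to 4486 in WT sham. Of 6 adipocyte markers none was called in JP2CR (median -0.42) and 5 were lower in WT (median -6.15). Of 6 smooth muscle cell and pericyte markers, 3 were lower in JP2CR and 5 in WT. The globin genes Hba-a1, Hba-a2, Hbb-bs and Hbb-bt had 3 counts or fewer in all libraries. The part of these cell types in the rise of the mitosis genes and in the fall of Cenpf was not tested.

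The authors' deposited table, with its own log2 fold changes and adjusted p-values, gave 19 mitosis genes higher and 1 lower in JP2CR and 24 higher and 1 lower in WT at an adjusted p under 0.05, against 17.9% and 21.6% of all genes called higher there. It gave 3 replication genes higher in JP2CR and 6 in WT, and none lower. Unlike the edgeR fit, it did not call Aurka, Birc5 or Ccne1 in JP2CR, and it called Ccnb2 higher there. In WT it did not call Aurka or Pcna, and it held no adjusted p for Melk. For Cenpf the authors' deposited table gave -1.58 in JP2CR and -2.07 in WT.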

How the data were processed

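Per the labels' protocols, polyadenylated RNA was prepared from ventricles and sequenced as stranded libraries. The 16 libraries, 4 per group, were assigned by the groups and replicate numbers in their titles. The design states 4 mice per group, but no label ties a library to an animal, and p-values therefore reflect library to library spread. The main fits count the intermediate libraries, WT TAC 3 and JP2CR TAC 3, as independent libraries. The submitters' processing notes list FastQC 1.0.0, Picard 1.128, DESeq2 1.6.3, Cufflinks 2.2.1, bedtools 2.17.0 and STAR 2.5.0b, with the mm10 build. Neither the counter nor its strand setting or annotation is given in the sources used here. The authors deposited whole-number read counts per gene, which were tested without rounding or rescaling. The authors also deposited log2 fold changes and adjusted p-values, whose method is not stated, and these are named as theirs where quoted.

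The test was edgeR 4.0.16 (R 4.3.3): filterByExpr per group, TMM factors, a mean per group over all 16 libraries, quasi-likelihood F tests and Benjamini-Hochberg adjustment over all 13522 genes within each of 5 comparisons (TAC against sham in each genotype, JP2CR against WT after each operation, and the difference of the TAC effects). The SE of a log2 fold change is its size over the square root of F. CPM are counts per 1000000 of the TMM-scaled total of the tested genes, and CPM per kilobase divide by the exonic length in GENCODE vM21. A count of 3 corresponds to 0.185 to 0.314 CPM, which covers counting error only. An intermediate library was recognised from genes with a mean of at least 10 CPM that differed between replicates 1 and 2 by over 5 counting errors. The fits were also run on simulated counts, drawn independently for each library with changes set in WT TAC only. These counts did not copy the intermediate libraries or those with Xist, and their outcome is not reported here.

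All 41 genes are accounted for. Values in every library are given for 14 listed genes and for the 3 genes of each class with the smallest p in each TAC comparison, and up to 4 genes are named per list of other pathway genes by smallest p. The genes, their classes, the lists and the markers were chosen with earlier results of these data known. Knl1 and Sgo1 were matched by RefSeq synonyms, and Trac and Ighm were not found. Promoters are RefSeq windows of GRCm38.p6. Alternatives were DESeq2 1.42.0, other size factors, other filters, fits restricted to the pair of groups in a comparison, a replicate block, and the omission of single libraries. The fits that omit the libraries with Xist, the intermediate libraries or both were added after the data were seen.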

Additional observations from a re-analysis of the deposited data

Results flagged for a closer look

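In 9 of 164 groups of 4 libraries (41 genes in 4 groups), 1 library stood farther from the other 3 than Dixon's 95% critical value allows, a share of 5.49%, while chance gives about 1 in 20. No explanation was weighed.

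At the high end, Plk1 had 1.711 CPM in JP2CR sham 1, Birc5 had 3.022 CPM in WT TAC 1, and in WT sham 3 Aurka had 1.466 CPM, Foxm1 2.443 CPM and Bub1 0.4886 CPM. At the low end, Kif20a had 2.694 CPM and Hmmr 1.347 CPM in JP2CR TAC 1, Mcm6 had 10.25 CPM in JP2CR sham 4 and Nusap1 had 1.606 CPM in WT TAC 4.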

How the results depend on the processing

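No direction of a called gene or count was reversed under the alternatives run. Size factors of DESeq2 and upper-quartile factors gave the same counts of members called higher, 24 in JP2CR and 32 in WT. The DESeq2 test gave 26 and 32, the absence of a filter 24 and 30, a floor of 1 CPM in 8 libraries 22 and 30, and fits of only the groups compared 21 and 32. Leaving out 1 library gave 16 to 29 in JP2CR and 25 to 32 in WT for all members called higher, 13 to 23 and 20 to 26 for mitosis genes, and 2 to 6 and 5 to 7 for replication genes. In WT it gave 1 to 2 members called lower, and 0 to 1 replication gene, Pcna. Counts called lower in JP2CR stayed at 1, and those between genotypes and of the difference of the TAC effects at 0.

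Without the 3 libraries with Xist, 8 members were called higher in JP2CR, 5 of them mitosis genes, beside 18.5% of all genes. Without all 5 libraries the count was 4, with 4 mitosis and 0 replication genes, beside 14.8% of all genes. Without the 2 intermediate libraries or all 5, WT had 1 member called lower and 0 replication genes called lower. With the 250 bases before the start alone, 8 mitosis genes held TTTGAA and 8 held both CCAAT and TTTGAA, and 6 replication genes held the E2F core. For single genes and class medians, 144 alternative values lost a call, 19 gained one and 4 moved by more than their spread. Most of them came from fits with fewer libraries, and the DESeq2 test, the absence of a filter and the replicate block gave 2 each. The causes were not tested.

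The replicate numbers did not pair the libraries: same-numbered libraries had correlations of their deviations from the group means of -0.055 to 0.108. With the replicate number as a block, 24 members were called higher in JP2CR and 30 in WT. Depth limits the genes with few counts, such as Melk, which had 177 counts over all 16 libraries.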
